A study of Mus musculus with 2 samples.

Results

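The 9 genes described here, App, Apoe, Mapt, Psen2, Bace1, Trem2, Bin1, Clu and Picalm, are mouse counterparts of genes tied to Alzheimer disease in humans, and were taken by name from 21853 protein-coding genes of GENCODE M21. DNase-seq, a map of the DNA that is exposed in nuclei and so cut by DNase I, was made for 1 group of 2 samples, replicates 1 and 2, of mouse hippocampus (a layer of it, not named further in the labels). Both samples came from male B6CASTF1/J mice aged 2 months, an F1 cross of the B6 and CAST strains, with separate biosample entries and a shared donor entry. The labels do not say whether separate animals were used, so the spread between replicates may be partly technical. Treatments, mutants and other tissues were absent, so every value below describes these 2 libraries, with no test between conditions. Reads of both parental alleles were placed on 1 reference genome, so heights pool the alleles and the letters shown are those of the reference.

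Amyloid-beta, the peptide of Alzheimer plaques, is cut from the precursor App first by Bace1 and then by the gamma-secretase, whose catalytic subunit can be Psen2. Tau, the product of Mapt, binds microtubules in axons and forms tangles in the disease. Apoe and Clu carry lipids and are secreted mainly by astrocytes, Trem2 is a lipid-sensing receptor of microglia, and Bin1 and Picalm act in membrane bending and clathrin-mediated endocytosis. Classes were assigned from textbook expression, which was not measured here. App, Mapt and Bace1 were called neuronal, Apoe, Clu and Trem2 glial, and Psen2, Bin1 and Picalm genes of several cell types. The other classes tried moved Psen2, Bin1 and Picalm alone, so the placing of App, Mapt and Bace1 was not varied.

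The authors' lists held 132685 peaks and 255536 footprints in replicate 1, and 59880 peaks and 111355 footprints in replicate 2. A footprint is a short stretch inside open chromatin that DNase I cut less than its surroundings. A site was counted where peaks of both replicates overlapped, which gave 50780 shared sites, and its height is the authors' signal value, in units whose scale is not known here. A promoter was called open where a shared site touched the 500 bp on either side of a protein-coding start, with starts within 500 bp of each other joined. Of the marker genes looked at, promoters were open for 5 of 7 neuronal, 4 of 5 hippocampal pyramidal and granule cell, 5 of 8 astrocyte, 4 of 8 oligodendrocyte, 3 of 10 microglial, 1 of 5 endothelial and 0 of 4 liver and muscle markers, beside 57.1% over all protein-coding genes. The microglial markers Aif1, C1qa, C1qb, P2ry12 and Tmem119 lacked a promoter peak in both replicates. In bulk tissue, fewer cells of a type and less accessibility per cell cannot be told apart.

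Open promoters were found for 8 of the 9 genes, and Trem2 was the exception. The share over all protein-coding genes was 57.1%. With each replicate alone the count was again 8, against 63.4% of all genes in replicate 1 and 58.5% in replicate 2. The open promoters of App, Mapt, Psen2, Picalm and Clu are shown because the heights and footprints below lie in them, and Bace1 is added for comparison. They run 5′ to 3′ in the direction of the gene on GRCm38 (mm10), from the edge of the shared site to 50 bases past the start, and capitals mark bases inside a footprint of either replicate.
App, chr16:85173716-85173880, minus strand: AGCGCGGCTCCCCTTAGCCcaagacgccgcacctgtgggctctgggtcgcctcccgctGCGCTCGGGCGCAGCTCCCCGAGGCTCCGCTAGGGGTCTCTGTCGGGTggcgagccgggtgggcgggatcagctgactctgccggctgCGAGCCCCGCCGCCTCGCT
Bace1, chr9:45838461-45838630, plus strand: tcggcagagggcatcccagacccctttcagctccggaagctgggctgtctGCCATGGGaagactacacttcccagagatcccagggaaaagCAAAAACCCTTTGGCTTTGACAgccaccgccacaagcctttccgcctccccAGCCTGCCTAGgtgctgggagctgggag
Psen2, chr1:180256250-180256440, minus strand: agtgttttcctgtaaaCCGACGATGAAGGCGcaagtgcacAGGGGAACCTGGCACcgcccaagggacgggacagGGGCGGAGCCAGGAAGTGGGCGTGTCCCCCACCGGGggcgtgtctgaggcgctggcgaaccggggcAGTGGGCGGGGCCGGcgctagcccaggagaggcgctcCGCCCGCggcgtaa
Mapt, chr11:104231161-104231440, plus strand: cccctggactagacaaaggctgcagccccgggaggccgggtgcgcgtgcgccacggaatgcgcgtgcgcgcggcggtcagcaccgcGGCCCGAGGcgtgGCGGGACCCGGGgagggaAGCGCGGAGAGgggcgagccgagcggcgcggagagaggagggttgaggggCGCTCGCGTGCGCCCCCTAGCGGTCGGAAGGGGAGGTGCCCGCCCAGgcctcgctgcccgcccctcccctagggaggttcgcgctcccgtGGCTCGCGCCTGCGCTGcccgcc
Clu, chr14:65968401-65968533, plus strand: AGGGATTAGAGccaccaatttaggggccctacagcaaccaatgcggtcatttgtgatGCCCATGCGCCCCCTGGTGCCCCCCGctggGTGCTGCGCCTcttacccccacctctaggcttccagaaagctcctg
Picalm, chr7:90130101-90130263, plus strand: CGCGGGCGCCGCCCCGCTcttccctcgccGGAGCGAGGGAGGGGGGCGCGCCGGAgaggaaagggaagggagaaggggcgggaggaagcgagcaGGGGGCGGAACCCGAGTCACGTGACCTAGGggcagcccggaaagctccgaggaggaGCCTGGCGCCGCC

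Among the genes of amyloid-beta production, App had a promoter height of 7.541 in replicate 1 and 4.228 in replicate 2, above 86.94% and 90.4% of the 12484 genes with an open promoter. Its peak reached from -114 to 85 bp of the start in replicate 1 and from -154 to 85 bp in replicate 2. Bace1, the beta-secretase, had heights of 4.129 and 2.334, above 51.12% and 46.6% of open genes. Bace1 thus stood at the middle of open genes, whose medians were 4.048 in replicate 1 and 2.463 in replicate 2, and App well above it. Psen2 reached 7.685 in replicate 1, the highest of the 9 genes there, and 3.442 in replicate 2, above 87.88% and 76.73% of open genes. The order of App and Psen2 differed between the replicates, and both exceeded Bace1 in each.

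Mapt had promoter heights of 5.375 and 3.539, above 67.07% and 79.02% of open genes. Its site was the widest of the 8, with a shared width of 400 bp. Picalm, a clathrin assembly protein, had 7.305 and 3.776, above 85.51% and 83.62% of open genes. Bin1, a membrane-bending adaptor whose start lies on chromosome 18, had 3.482 and 2.442, above 42.48% and 49.58%. Bin1 lay below the median of open genes in both replicates.

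The glial genes had promoters of unlike height. Clu had 6.134 in replicate 1 and 3.346 in replicate 2, above 75.26% and 74.7% of open genes. Apoe had 1.364 and 1.345, above 14.6% and 19.07%, which was the lowest height of the 8 genes in both replicates. The Apoe site, chr7:19698961-19699166, was also the one that was nearly as high in replicate 2 as in replicate 1, with a log2 ratio of -0.02 against a median of -0.71 over all open genes. In the shorter peak lists that the authors deposited, Apoe had no shared promoter site, and the count of genes with an open promoter was 7. Trem2 had no peak within 500 bp of its start, chr17:48346401, in either replicate, and the deposited file of false discovery rates (FDR), which lists values below 0.05, held no interval there.

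The neuronal genes had a median promoter height of 5.375 in replicate 1, with a range of 4.129 to 7.541, and the glial genes, with Trem2 at 0, a median of 1.364 and a range of 0 to 6.134. In replicate 2 the neuronal median was 3.539, with a range of 2.334 to 4.228, and the glial median 1.345, with a range of 0 to 3.346. The ranges overlapped in both replicates, because Clu exceeded Bace1 and Mapt in replicate 1 and Bace1 in replicate 2. The genes of several cell types had medians of 7.305 and 3.442. The difference in medians, neuronal minus glial, was 4.011 in replicate 1 and 2.195 in replicate 2, and each class holds 3 genes, which are not replicates of it.

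**Figure D1:**
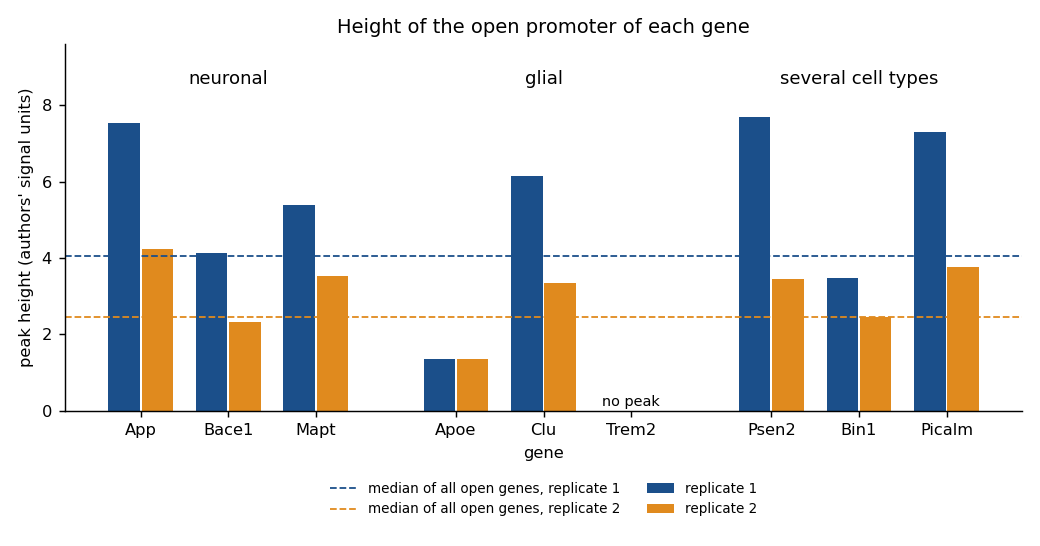
Peak height at the open promoter of each gene (bars, authors' signal units) in replicate 1 and replicate 2, with dashed lines at the medians over all 12484 genes with an open promoter. App, Psen2, Picalm, Clu and Mapt stand above both medians, Bace1 and Bin1 lie near them, Apoe is at 1.364 and 1.345, and Trem2 has no peak.

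The 9 genes have 21 annotated promoters after joining, and 8 of these were open, beside 41.2% of 34338 promoters of all genes. Mapt, Psen2, Bace1, Bin1, Clu and Picalm have more than 1 promoter, and each of these 6 genes had exactly 1 that was open. Over all genes with more than 1 promoter, 33.1% of promoters were open, and 72.5% of those genes with any open promoter had exactly 1. For Mapt, Bace1, Bin1, Clu and Picalm the open promoter was the most upstream one. Psen2 differed, since its open promoter was the second of 5, at chr1:180256300, and the start upstream of it, at chr1:180263438, had no peak in either replicate. The downstream promoters of Mapt, at chr11:104282381, and of Bace1, at chr9:45854627, had no peak in either replicate.

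Peaks in replicate 1 alone touched 3 of the 13 closed promoters. Heights here are of the highest replicate 1 peak touching the window, and footprints are those of the window. A downstream Clu promoter, chr14:65970620, had a height of 1.3 and 5 footprints, not all inside that peak, and no peak in replicate 2. A Picalm promoter, chr7:90131645, had a height of 0.4813, from a peak at -984 to -489 bp of the start. Its 3 footprints lay outside that peak. The last Psen2 promoter, chr1:180245950, had a height of 0.06418 and no footprint. All 3 heights lay below the median of open genes in replicate 1. Replicate 1 also had more peaks, and whether depth accounts for the peaks at these promoters was not tested.

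Open and closed promoters of these genes did not overlap in GC content, and overlapped at their edges in CpG content. GC content of the 1001-bp window had a median of 63.89% in the 8 open promoters and 49.75% in the 13 closed ones, against 59.44% in all open and 46.85% in all closed promoters. The ratio of observed to expected CpG was 0.676 in the open and 0.19 in the closed promoters of these genes, and 0.736 and 0.219 over all genes. The overlap was between the open Apoe promoter and a closed Picalm promoter with a CpG ratio of 0.4. Among the open promoters, Apoe had the lowest of both, with 55.34% GC and a CpG ratio of 0.38. App, Mapt and Picalm had the highest CpG ratios, at 0.895, 0.892 and 0.808. The Trem2 promoter had 53.85% GC and a CpG ratio of 0.166.

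**Figure D2:**
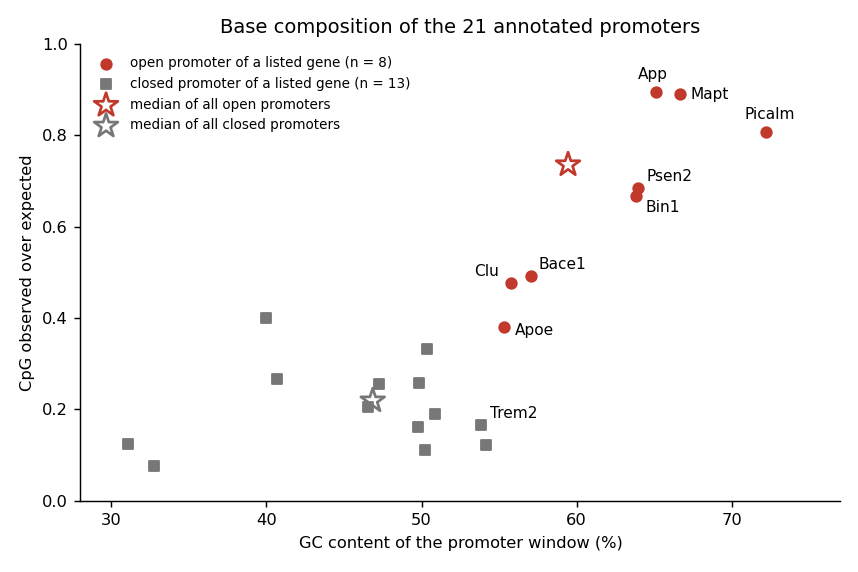
GC content (percent) and observed over expected CpG of the 21 annotated promoters, open ones as circles and closed ones as squares, with stars at the medians over all promoters. The open promoters lie at the upper right, Apoe at their lower edge, and Trem2 among the closed promoters.

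Footprints were present in both replicates in all 8 open promoters, as in 93.0% of open promoters of all genes. Mapt had the most, with 9 in each replicate, and 6 of the 9 in replicate 1 overlapped a footprint of replicate 2. App had 4 in each replicate, and all 4 of replicate 1 overlapped one of replicate 2. Bace1 had 3 in each, of which 2 overlapped, and Psen2 had 4 in replicate 1 and 5 in replicate 2. Picalm had 6 and 4, and Bin1 had 8 and 4. Clu had 7 and 5 at its open promoter, of which 2 of replicate 1 overlapped one of replicate 2. Apoe had 2 in replicate 1 and 1 in replicate 2, and they did not overlap. Over the genes of a class, the median number of promoter footprints was 4 in both replicates for the neuronal genes, and 2 in replicate 1 and 1 in replicate 2 for the glial genes. The neuronal range was 3 to 9 in both replicates, and the glial range was 0 to 12 in replicate 1 and 0 to 5 in replicate 2, so the classes overlapped. These counts take all promoters of a gene, so the 5 replicate 1 footprints at the closed Clu promoter are in them. The number of footprints called over the genome moved with the replicate as well, so counts are compared within a replicate.

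The GC box GGGCGG, bound by SP and KLF factors, occurred on either strand in the windows of all 8 open promoters, against 85.6% of open promoters and 50.34% of all promoters. It lay in or within 10 bp of a footprint in both replicates at Apoe, Mapt, Psen2 and Picalm. At Psen2 it stands inside the capitals, and at Apoe it adjoins them, as in this stretch of 30 bases that begins 60 bp past the most upstream Apoe start.
Apoe, chr7:19699099-19699128, minus strand: cagcccGCCCTAGCcCTGAGGAGggggcgg
The E-box CACGTG lay inside a Picalm footprint in replicate 1, within the capitals shown for Picalm, and overlapped the end of one in replicate 2. These letters are held by 20.98% of open promoters. The windows of Bace1 and Bin1 held CCGGAAG, a motif of ETS factors found in 28.11% of open promoters, but outside footprints. None of the 8 windows held TGACGTCA (the cyclic AMP response element), GCGCATGCG (NRF1) or GAGGAAGT (the PU.1 type of ETS motif), which 4.709%, 4.759% and 5.848% of open promoters hold. TGAGTCA (AP-1, read on either strand) occurred at App and Clu, against 9.072% of open promoters, and AAGATGGCG (YY1) at Clu, against 5.728%. CCAAT (NFY) occurred at Apoe, Bace1, Bin1 and Clu, which is 4 of 8 windows, against 65.63% of open promoters. The E-box CAGCTG occurred in 5 of the 8 windows, against 41.06%, another E-box, CAGATG, in 3, against 36.13%, and the SOX motif ACAAAG in 5, against 40.08%. Of the motifs searched, the window of the closed Trem2 promoter held the NFY motif and these 2 E-boxes. Apart from GGGCGG and CACGTG, none of these motifs lay in or within 10 bp of a footprint in both replicates. A match is a match of letters, and binding was not measured.

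The gene bodies with 50 kb on either side held 50 shared sites in all, of which 11 lay at own starts, 7 at starts of other genes, 3 in own exons, 14 in own introns and 15 in the flanks. The neuronal genes had 1.851 (App), 3.986 (Mapt) and 4.769 (Bace1) sites per 100 kb, and the glial genes 1.856 (Trem2), 4.422 (Clu) and 5.821 (Apoe). The medians of 3.986 and 4.422 differed by -0.44, and the ranges overlapped. Psen2 had 5.131, Bin1 5.047 and Picalm 1.091 sites per 100 kb. The median over all protein-coding genes was 3.299, so Picalm, App and Trem2 were below it and the other 6 genes above it.

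Sites at the starts of neighbours made up much of the count at Apoe and Bace1. At Apoe 3 of 6 sites were such starts, with heights of 7.386 and 4.712 at Clptm1 and of up to 7.166 and 3.399 at Tomm40, each higher than Apoe's own promoter in both replicates. At Bace1 3 of 6 sites lay at the starts of Cep164 and of Pcsk7 and Rnf214. At Psen2 1 of 7 sites was the start of Coq8a, with heights of 6.134 and 3.991. With sites at any protein-coding start left out, the densities per 100 kb were 1.234 for App, 3.488 for Mapt and 1.59 for Bace1, against 1.94 for Apoe, 2.653 for Clu and 1.856 for Trem2. Bin1 then had the densest span, with 4.416, followed by Mapt, and Picalm the sparsest, with 0.546, where the median over all genes was 1.565. Bin1 and Mapt each held 7 such sites, in spans of 158.5 and 200.7 kb. The Bin1 count includes neighbouring sites with shared peak heights, described below, and its lead over Mapt depends on them. With the pair at 37.7 kb counted as 1 site, Bin1 would stay above Mapt. With the site at 37.4 kb joined to them as well, it would fall below Mapt.

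**Figure D3:**
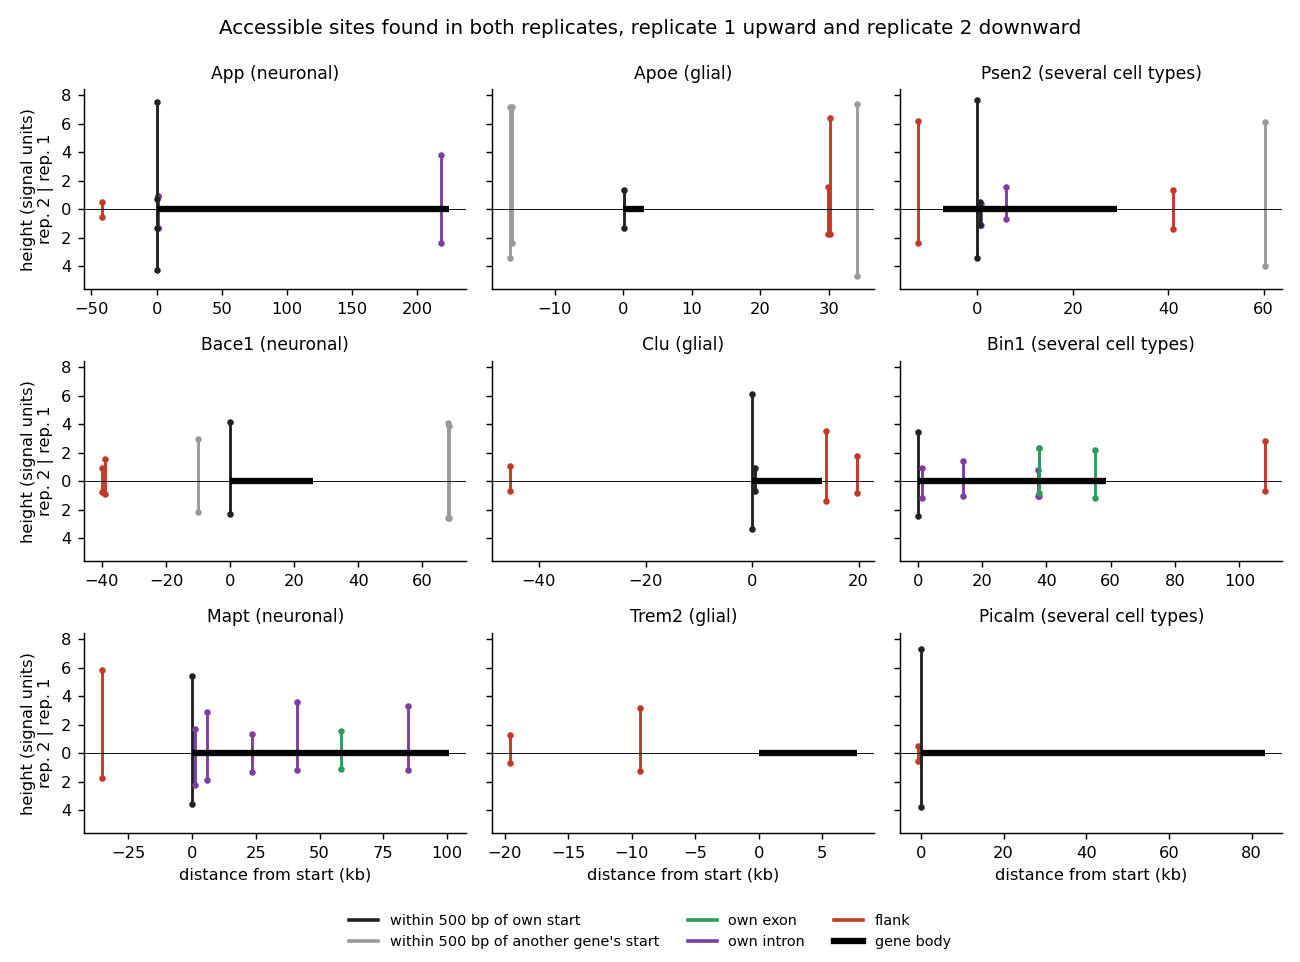
Shared accessible sites around each gene, by distance from the open start in the direction of the gene (kb; for Trem2 from its closed start), with height in replicate 1 upward and in replicate 2 downward (authors' signal units) and the gene body as a thick bar. Mapt and Bin1 hold most of their sites in the gene body, Apoe, Clu, Bace1 and Trem2 hold all their sites away from starts in the flanks, and Picalm has 1 site beside its promoter.

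Within its body of 100.7 kb Mapt had 6 sites away from starts, at 1.01, 6.03, 23.4, 41.1, 58.5 and 84.5 kb from the open start, with heights of 1.31 to 3.567 in replicate 1 and 1.097 to 2.216 in replicate 2. Bin1 had 6 such sites between 1.21 and 55.2 kb, with heights of 0.7701 to 2.316 and 0.8498 to 1.205. Both genes thus held a row of sites lower than their promoters. At Bin1, the site at 37.4 kb and 1 of the pair at 37.7 kb had the same replicate 2 height, 1.043. The pair had the same replicate 1 height, 2.316. The number of Bin1 sites thus depends on how overlapping peaks were split. App had 3 sites in a body of 224.1 kb. A pair of them lay 0.765 and 1.21 kb past the start and had the same replicate 2 height, 1.302. The App site at 0.555 kb, counted at its own start, had this height too, so 1 replicate 2 peak may cover them. The other site in the body lay 218 kb past the start. In the body of Picalm, 83.25 kb long, no shared site lay away from starts. Peaks in 1 replicate alone numbered 5 to 17 per gene in replicate 1 and 0 to 1 in replicate 2.

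Among the 8 genes with an open promoter, the strongest site away from protein-coding starts was higher than the gene's own promoter in replicate 1 at Apoe and Mapt, and in replicate 2 at Apoe. For Apoe it lay 30.1 kb past the start, in no protein-coding gene and 4.05 kb from the start of Clptm1, with heights of 6.38 and 1.71. Its neighbour at 29.8 kb had 1.572 in replicate 1 and the same 1.71 in replicate 2, so the replicate 2 height is not particular to either. For Mapt it lay 35.4 kb upstream, 9.7 kb from the start of Sppl2c, with 5.829 and 1.775. For Psen2 it lay 12.5 kb upstream of the open start, with 6.209 and 2.334. The App site was in the intron near the 3′ end of the gene, 5.97 kb before that end, with 3.808 and 2.377. For Clu it lay 0.793 kb past the 3′ end, with 3.492 and 1.42. Trem2, with no promoter peak, had its strongest site 9.33 kb upstream, with 3.198 and 1.237. These heights stood above 93.71% (App), 97.54% (Apoe), 96.94% (Mapt), 98.02% (Psen2), 87.93% (Clu) and 84.6% (Trem2) of all 33425 sites away from starts, by mean height. The Bin1 site, 49.4 kb past the 3′ end, had 2.797 and 0.71, above 75.24% of these sites. The Bace1 site, in an intron of Cep164, had 1.551 and 0.9251, above 57.93%, and the Picalm site, 0.772 kb upstream, had 0.508 and 0.516, above 9.134%.

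The letters of 6 of these sites are shown because their footprints carry a shared feature in 5 of them. Capitals again mark bases in a footprint of either replicate, and each runs in the direction of the gene.
App, chr16:84955561-84955740, minus strand: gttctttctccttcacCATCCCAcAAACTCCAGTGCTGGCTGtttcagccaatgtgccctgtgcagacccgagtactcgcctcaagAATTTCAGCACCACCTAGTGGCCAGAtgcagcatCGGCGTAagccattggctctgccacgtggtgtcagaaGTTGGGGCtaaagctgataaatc
Mapt, chr11:104195941-104196120, plus strand: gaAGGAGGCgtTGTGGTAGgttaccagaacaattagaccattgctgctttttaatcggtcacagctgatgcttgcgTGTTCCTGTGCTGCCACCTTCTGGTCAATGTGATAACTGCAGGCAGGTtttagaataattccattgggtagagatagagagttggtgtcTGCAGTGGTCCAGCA
Apoe, chr7:19668981-19669180, minus strand: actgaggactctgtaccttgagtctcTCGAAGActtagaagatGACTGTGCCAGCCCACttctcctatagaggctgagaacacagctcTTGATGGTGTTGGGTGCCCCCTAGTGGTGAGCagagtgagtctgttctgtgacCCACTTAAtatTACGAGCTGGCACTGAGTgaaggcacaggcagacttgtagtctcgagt
Clu, chr14:65982261-65982420, plus strand: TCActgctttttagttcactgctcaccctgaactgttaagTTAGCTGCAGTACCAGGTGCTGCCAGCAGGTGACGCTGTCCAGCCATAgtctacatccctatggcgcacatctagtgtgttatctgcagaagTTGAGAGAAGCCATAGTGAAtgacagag
Psen2, chr1:180268681-180268860, minus strand: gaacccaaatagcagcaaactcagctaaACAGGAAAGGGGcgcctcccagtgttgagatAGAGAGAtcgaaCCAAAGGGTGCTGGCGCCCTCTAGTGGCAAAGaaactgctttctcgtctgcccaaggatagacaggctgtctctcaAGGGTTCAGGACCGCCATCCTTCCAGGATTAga
Trem2, chr17:48336981-48337160, plus strand: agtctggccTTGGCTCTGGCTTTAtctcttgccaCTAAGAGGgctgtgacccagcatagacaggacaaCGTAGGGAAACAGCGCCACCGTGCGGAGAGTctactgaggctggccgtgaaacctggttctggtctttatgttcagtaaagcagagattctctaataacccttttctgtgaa

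CTCF is a protein that binds at insulators and chromatin loop anchors. The core of its consensus overlapped a footprint in both replicates at the sites of App, Mapt, Apoe, Clu and Psen2. It lay wholly inside one in both replicates at App, Mapt and Psen2, whereas the replicate 2 footprints at Apoe and Clu covered part of the core. The search was for its 12 letters on either strand with at most 1 mismatch in the 200 bp around the centre of a site, and was chosen after the footprints had been seen. At Apoe and Psen2 the match had no mismatch and read CCACTAGGGGGC and CCACTAGAGGGC on the strand opposite to the gene. The sites of Bace1, Trem2, Bin1 and Picalm held no such core. Of the 9 sites 7 were among the highest 25% of all sites away from starts by mean height, all but those of Bace1 and Picalm, and the 5 with the core were among these 7. Over all sites away from starts 25.19% held the core, and 52.12% of the highest 25%. At the open promoters of Mapt and Clu the core lay inside a footprint in both replicates. At that of Picalm it overlapped one in replicate 1 alone. Each match had 1 mismatch. Of all sites at protein-coding starts 5.756% held the core, in a footprint or not.

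Of the 32 sites away from starts around the 9 genes, 11 held the core and 21 did not. One of the 11 matches was counted for a pair of adjoining Bin1 sites. Their median log2 ratio of replicate 2 to replicate 1 height was -1.30 with the core and -0.34 without it, and the ranges, -1.90 to 0.47 and -1.98 to 1.67, overlapped. The same medians over all sites away from starts were -1.10 with the core and -0.27 without it, and -1.19 and -0.83 in the highest 25% by mean height. The heights in replicate 1 of the sites with the core were also larger, with medians of 3.337 with it and 1.374 without it. The part of height in this difference was looked at only within that highest 25%.

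**Figure D4:**
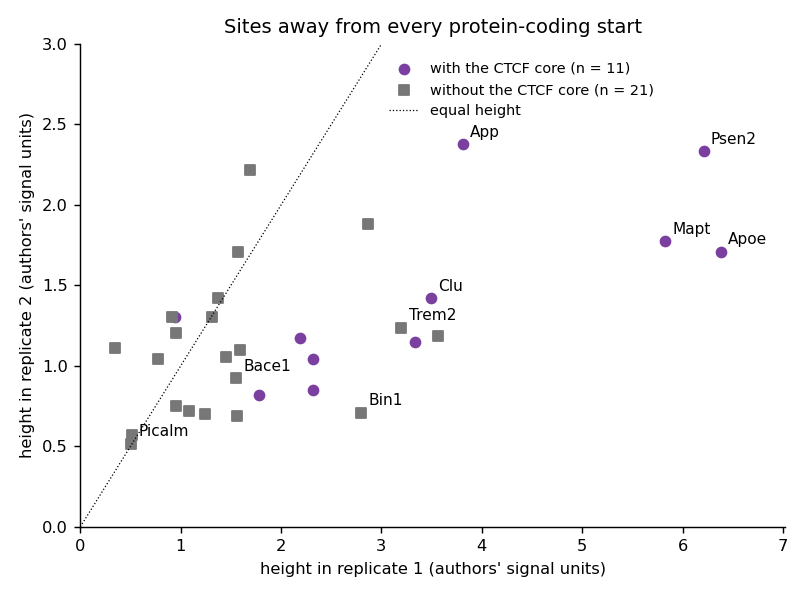
Height in replicate 1 and in replicate 2 (authors' signal units) of the 32 shared sites away from protein-coding starts, with the CTCF core as circles and without it as squares. The strongest site of each gene is named, and those of Apoe, Psen2, Mapt, App and Clu are circles below the line of equal height.

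Other genes of the same pathways had open promoters for 38 of 53 genes (71.7%), against 57.1% of all genes. Of the genes of App processing 15 of 16 were open, and Ide, a protease that degrades amyloid-beta, had no peak in either replicate. The highest by mean height were Adam10, an alpha-secretase, with 8.755 and 3.281, the protease Adam17 with 6.626 and 4.819, and the App homologue Aplp2 with 7.396 and 3.625. Bace2, the homologue of Bace1, had 0.7006 and 1.022, against 4.129 and 2.334 for Bace1.

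All 8 tau kinases and partners were open. The kinase Gsk3b had 7.787 and 4.174, the kinase Cdk5 8.487 and 3.421, and the ubiquitin ligase Stub1 6.551 and 3.754, and all 3 exceeded Mapt in replicate 1. Of the apolipoprotein and lipid genes 5 of 9 were open, led by the lipid transporter Abca7 with 7.316 and 3.561, followed by the Apoe receptor Lrp8 with 2.631 and 2.065 and the cholesterol exporter Abca1 with 3.252 and 1.377. Apoc1, the neighbour of Apoe, and Apod had no peak in either replicate. Lrp1 had promoter peaks of 4.022 in replicate 1 and 2.248 in replicate 2, but they did not overlap, so it was not counted as open. Of other risk genes of endocytosis, adhesion and neurons 7 of 10 were open, led by Zcwpw1 with 7.412 and 4.368, the adaptor Cd2ap with 6.316 and 4.475 and the splicing factor Celf1 with 2.578 and 1.904. Cass4 and Rin3 had no peak in either replicate.

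Of the microglial risk genes 3 of 10 were open, against 57.1% of all genes. These were Grn, which encodes progranulin and is not restricted to microglia, with 3.968 and 1.85, the phosphatase Inpp5d with 0.6524 and 0.5701, and the phospholipase Plcg2 with 0.3369 and 0.5809. Abi3, Cd33 and Ms4a6d had no peak in either replicate, nor had Spi1, which encodes PU.1, and Tyrobp, the signalling adaptor of Trem2. Trem2 thus lacked a promoter peak together with its adaptor and with 5 of the 10 microglial markers.

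**Figure D5:**
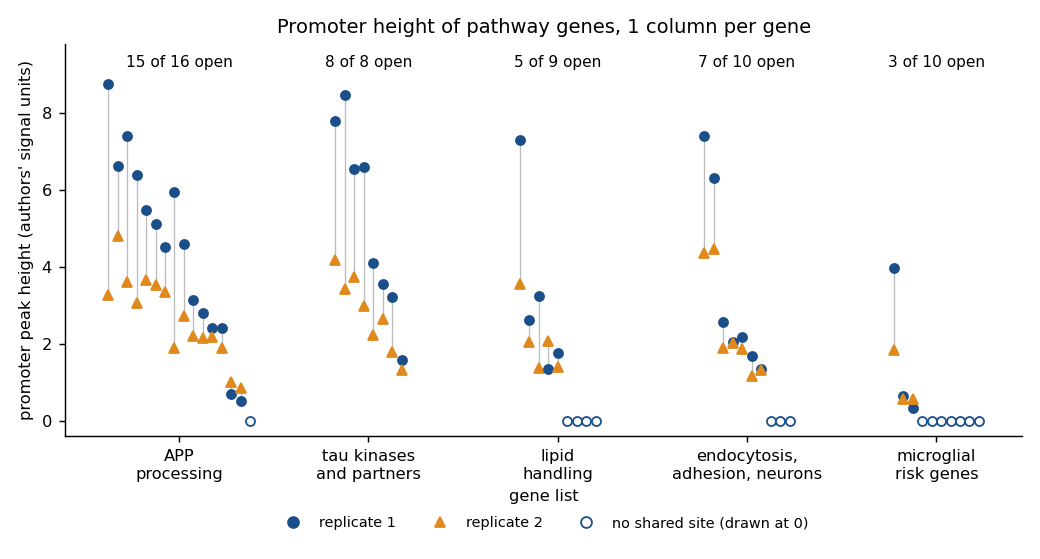
Promoter peak height (authors' signal units) of the 53 pathway genes, 1 column per gene with replicate 1 as a circle and replicate 2 as a triangle, and genes without a shared site as open circles at 0. The 16 genes of App processing and the 8 tau genes hold 15 and 8 open promoters, and the 10 microglial risk genes hold 3.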

How the data were processed

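DNase-seq libraries of 2 hippocampus samples, biological replicates 1 and 2 of 1 group, were used as deposited on mm10 per the labels. The aligner and the programs behind the peaks and footprints are not named in the sources used here. The authors deposited 2 peak lists per sample, whose column 7 holds the signal height, and the longer list was used. The authors' footprints carry the constant 0.01 where a p-value would stand, so their positions alone were used. The deposited FDR files give a q-value per interval and were read at promoters without a peak.

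Heights up to 500 steps came as multiples of a smallest unit of 0.00535 in replicate 1 and 0.0108 in replicate 2, to within 0.02 of that unit. Such units may reflect a deeper replicate 1, but the depth itself is unknown, so no counting interval is given and ratios between replicates are descriptions.

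Shared sites were merged intersections (at least 1 bp) of peaks of both replicates, with the highest overlapping peak of each replicate as height. Starts came from protein-coding transcripts of GENCODE M21. The last peak on each of 21 chromosomes lay within the GRCm38 length. Sequences were read from the RefSeq copy of GRCm38.p6 with samtools 1.23.1 and pysam 0.24.0, and overlaps were computed in Python 3.11.15 with NumPy 2.4.6, after the overlap code had been tested on simulated data. The genes, classes, pathway and marker lists and motifs were chosen with earlier results of these data known. All 9 genes are named with all their promoters where open, with the strongest site outside promoters and with sites at other genes' starts. From each pathway list the 3 open genes highest by mean height and up to 3 without a peak in alphabetical order are named. Bace2, Lrp1, Spi1 and Tyrobp were added after their values were seen. No test was made, since there is 1 group. Alternatives tried were the shorter lists, lists of equal length, 50% reciprocal overlap, each replicate alone, other window and flank widths, other classes, footprints inside peaks and starts of basic transcripts.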

Additional observations from a re-analysis of the deposited data

How the results depend on the processing

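The count of 8 genes with an open promoter was 7 with the shorter lists and 8 under each other alternative tried. The count of 8 open promoters lay between 7 and 11, and the count of 38 pathway genes between 26 (50% reciprocal overlap) and 43 (replicate 1 alone). The share over all genes was 57.1% in the main setting, 63.4% in replicate 1 alone and 58.5% in replicate 2 alone. It was not recomputed under the other alternatives, and the share over all promoters only in the main setting. Whether these counts moved more than those of all genes was thus not tested. Of 79 values recomputed for 9 results, 62 moved by less than the spread between replicates or, for counts, less than 1.5 times. This spread is the standard deviation of 2 values and was 3.127 for the median density. The 62 thus include a fall of that density from 4.422 to 2.2, and the fall from 38 to 26 pathway genes. Neuronal minus glial promoter height was positive under every alternative tried for it, and Trem2 stayed at 0 in the glial class in each. With other half-widths, 50% reciprocal overlap or lists of equal length the difference was unchanged, at 4.011 in replicate 1 and 2.195 in replicate 2. It was 5.375 in replicate 1 and 3.539 in replicate 2 with the shorter lists, where Apoe had no site, and 2.86 and 1.22 with Bin1 and Psen2 as glial and Picalm as neuronal. The median density over the 9 genes was 4.422 without replicate 1 and 8.844 without replicate 2, where every peak of replicate 1 counts. It was 2.49 with the shorter lists, 2.2 with 50% reciprocal overlap and 1.94 with sites at starts left out, chosen after seeing the data. Neuronal minus glial density had no stable sign. It was 0.032 with flanks of 10 kb and 1.02 with flanks of 100 kb, but -11.4 in the gene bodies alone. The glial bodies are 3.08 (Apoe), 7.747 (Trem2) and 13.06 kb (Clu) long, the neuronal ones 25.82 (Bace1) to 224.1 kb (App). All sites in the glial bodies lay at own starts, and in a short body 1 such site gives a high density. The difference in density was -0.45 without replicate 1 and -0.87 without replicate 2. It was -1.06 with 50% reciprocal overlap, -0.75 with Bin1 as glial, -2.13 with Bin1 and Psen2 as glial and Picalm as neuronal, and -0.045 with Bin1 as neuronal. With sites at starts left out it was -0.35. Neuronal minus glial promoter footprints in replicate 1, 2 in the main setting, were -1 with Bin1 as glial, 4 with Bin1 as neuronal, 7 with a half-width of 2000 bp and 1 for footprints inside peaks. In replicate 2, 3 in the main setting, they were 1.5 with Bin1 as glial and 0 with Bin1 and Psen2 as glial and Picalm as neuronal. The cause of these shifts was not tested. No paired analysis was possible because there is 1 group and no result comes from a test. The depth is unknown, so an absent peak, as at Trem2, says that none was detected in these lists.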
